A study of Homo sapiens with 2 samples.

Results

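Mono-ADP-ribosyltransferases are the members of the PARP family that attach a single ADP-ribose unit from NAD+ to a target, rather than building chains. The genes described here are PARP4, PARP6, PARP8, PARP9, PARP10, PARP11, PARP12, PARP14 and PARP16, together with DTX3L, a ubiquitin ligase that binds PARP9. They were taken by symbol from a table of 26485 genes, and all 10 were found and measured. Both samples are bulk RNA, in which fewer cells with a transcript and less of it per cell cannot be told apart. RNA was sequenced from 2 established human leiomyosarcoma lines under the solvent DMSO, SK-LMS-1, from a tumour of the vulva, and SK-UT-1, from a tumour of the uterus. Each line came from 1 tumour and was represented by 1 library, and no genotype beyond the line was labelled. The series concerns an inhibitor of poly(ADP-ribose) polymerases given with an inhibitor of a histone methyltransferase, and the comparison available here is SK-LMS-1 against SK-UT-1 with solvent alone.

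Several of these enzymes are known as part of the interferon response. PARP9, PARP10, PARP12 and PARP14 are induced by interferon in many cell types, through an interferon-response element in their promoters. PARP9 and PARP14 also carry macrodomains, which bind ADP-ribose. Others sit in cell structures: PARP4 in vault particles, PARP11 at the nuclear envelope and PARP16 in the membrane of the endoplasmic reticulum. Inhibitors of PARP1 and PARP2 are used in cancer treatment, while the single-unit enzymes have other sites of action.

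The libraries held 6906280 counts in SK-LMS-1 against 7635850 counts in SK-UT-1. With 1 library per line no test could be made, and no difference has a replicate check. Expression is given as CPM, a count scaled to library size with the TMM method, when the lines are compared, and as TPM, which also divides by gene length, when genes are compared. Ranges in parentheses are exact 95% intervals, which cover counting error only and take fragments as independent. Genes that reached 1 CPM in either library were taken as measured. The labelled tissue was checked on 10 smooth muscle markers. CALD1, an actin-binding protein of smooth muscle, was the highest of them, with 749 CPM for SK-LMS-1 against 343 CPM for SK-UT-1. MYH11, the smooth muscle myosin, was close to absent, with 5 counts for SK-LMS-1 against 2 counts for SK-UT-1, and DES (desmin) had 1 count for SK-LMS-1 against 26 counts for SK-UT-1. Of the 9 measured, 5 passed 2-fold towards SK-LMS-1 and 3 towards SK-UT-1. MYLK, the myosin light chain kinase, had 414 CPM for SK-LMS-1 against 9.94 CPM for SK-UT-1, while ACTA2, the smooth muscle actin, went the other way, with 10.5 CPM for SK-LMS-1 against 54.0 CPM for SK-UT-1. The summed level of the 10 markers, most of it from CALD1, MYLK and SMTN, came to 1468 CPM for SK-LMS-1 against 529 CPM for SK-UT-1. The 6 epithelial markers summed to 101 CPM for SK-LMS-1 against 48.0 CPM for SK-UT-1. KRT18 sets that direction, at 73.3 CPM for SK-LMS-1 against 10.6 CPM for SK-UT-1, since the other 5 summed to 28.2 CPM for SK-LMS-1 against 37.4 CPM for SK-UT-1. The 5 endothelial markers summed to 1.53 CPM for SK-LMS-1 against 0 CPM for SK-UT-1. What part these markers have in the ratios below was not tested.

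The promoters of 4 members held a match to the core of the interferon-response element, and the matches are printed because the rule that chose the members did not use them. The motif searched was GAAA and GAAA again after 2 bases of any kind, on both strands, in windows from 250 bases before to 50 bases after each RefSeq start (GRCh38.p14). All members but PARP4 and PARP10 had at least 1 window, which gave 11 windows for 8 genes, and PARP9, DTX3L, PARP12 and PARP14 each held 1 match. PARP6, PARP8, PARP11 and PARP16 held no match in these windows. Of all 27305 genes in the set of RefSeq windows, 4.38% held the motif in a window, and 3.57% of all 35116 windows held it. In comparison it was held by 24 of the 33 interferon-stimulated genes of the comparison list that had a window. Among the other lists used in this text, 2 of 7 smooth muscle markers with a window held it. So did 2 of 7 reported partners and substrates and 1 of 11 genes for interferon receptors and JAK-STAT signalling. The remaining lists held no match. Each line gives the strand of the gene, 5′ to 3′, with the 10 matched bases in capitals:
DTX3L (plus strand, chr3:122564322-122564351): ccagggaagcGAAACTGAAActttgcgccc
PARP9 (minus strand, chr3:122564322-122564351): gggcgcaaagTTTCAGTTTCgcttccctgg
PARP14 (plus strand, chr3:122680719-122680838): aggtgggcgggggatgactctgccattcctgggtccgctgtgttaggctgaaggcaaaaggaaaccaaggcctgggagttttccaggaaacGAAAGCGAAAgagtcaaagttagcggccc
PARP12 (minus strand, chr7:140062942-140062971): ccggggccgcTTTCGGTTTCgtttcccgcc

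The DTX3L and PARP9 lines are the same 30 bases read from opposite strands, so this pair of neighbours shares 1 copy of the motif. Its first base on the gene's strand lies 6 bases before the RefSeq start of DTX3L and 41 bases before a start of PARP9. In PARP14 the match begins 29 bases before the start, and in PARP12 10 bases before it. The counting annotation extends the first exon of PARP12 further upstream than RefSeq does, so the PARP12 match falls inside that exon. PARP9 too begins upstream of its match in that annotation, at chr3:122564676 on the minus strand. The other RefSeq window of PARP9 held no match. A match is a description of these letters and does not show that a factor binds there.

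At a threshold of 2-fold, PARP8 and DTX3L were higher in SK-LMS-1, PARP10 was higher in SK-UT-1, and the other 7 members did not reach it. Of all 14324 measured genes, 21.9% passed the same threshold towards SK-LMS-1 and 18.3% towards SK-UT-1. These 2 shares are also the background for every 2-fold count of a list or of neighbours in this text. That makes 40.2% in both directions together, against 30% of the members, so the share of members is not above the background. At 1.5-fold, 5 members passed towards SK-LMS-1 (30.8% of measured genes) and 1 towards SK-UT-1 (28.3%, and 59% in both directions). With library totals as the scaling, PARP12 and PARP14 fell just short of 1.5-fold and 3 members passed towards SK-LMS-1. At 4-fold, 1 member passed towards SK-LMS-1 (11.4%) and 0 towards SK-UT-1 (7.3%, and 18.7% in both directions). The member closest below 2-fold was PARP4, at 1.79-fold. The median log2 ratio (SK-LMS-1 over SK-UT-1) was 0.63 over the members and 0.01 over all measured genes. The log2 ratio was above 0 for 7 members and below 0 for 3. Among all measured genes 50.3% were above 0. The interval excluded equal levels for 6 members towards SK-LMS-1 (37.9% of measured genes) and for 1 towards SK-UT-1 (36.3%, and 74.2% in both directions), so the 7 members of 10 are no larger a share than the background.

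**Figure D1:**
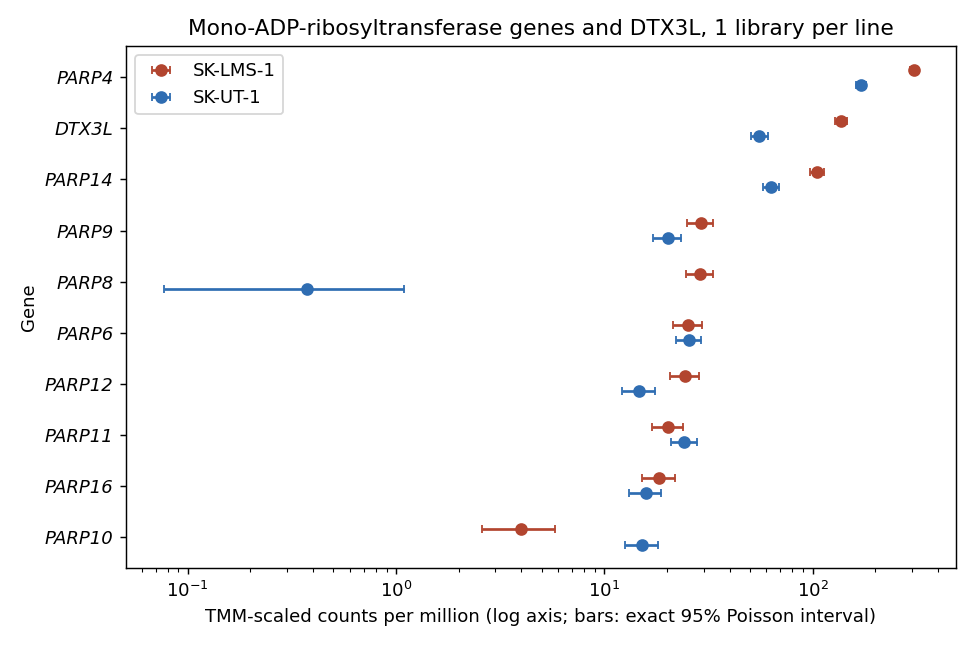
TMM-scaled CPM on a log axis for the 10 genes in SK-LMS-1 (red) and SK-UT-1 (blue), 1 library each, with exact 95% Poisson intervals as bars. PARP8 in SK-UT-1 (0.373 CPM) and PARP10 in SK-LMS-1 (3.97 CPM) stand below all other values, the lowest of which is 14.7 CPM.

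PARP9, DTX3L and PARP14 lie together on the long arm of chromosome 3, within 203 kb in hg38. PARP9 occupies chr3:122527911-122564676 on the minus strand, DTX3L chr3:122564338-122575202 on the plus strand and PARP14 chr3:122680825-122730840 on the plus strand. PARP9, whose activity depends on DTX3L, had 190 counts, or 29 CPM (25.0 to 33.4), in SK-LMS-1 against 162 counts, or 20.1 CPM (17.1 to 23.5), in SK-UT-1. DTX3L had 901 counts, or 138 CPM (129 to 147), in SK-LMS-1 against 446 counts, or 55.4 CPM (50.4 to 60.8), in SK-UT-1. The intervals of the lines did not overlap for either gene. The level was 1.44-fold higher in SK-LMS-1 for PARP9 (1.16 to 1.79) and 2.48-fold for DTX3L (2.21 to 2.79). Among the 10 members, the whole interval lay beyond 2-fold for DTX3L, PARP8 and PARP10, although with library totals that of DTX3L began at 1.99.

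The partners were thus not at a fixed ratio in the 2 libraries, although their starts in the counting annotation are 0.338 kb apart. Per length, DTX3L stood 6.56 times above PARP9 in SK-LMS-1 (5.60 to 7.71) and 3.81 times above it in SK-UT-1 (3.17 to 4.59). The ratio of these ratios was 1.72 (1.35 to 2.20) and is the same whatever gene length or library scaling is used. The size of each within-library ratio does depend on length, because the table gives PARP9 7977 bases, more than its longest GENCODE 29 coding transcript of 6769 bases. With that transcript and the one of 5868 bases for DTX3L, a setting chosen after seeing the data, the ratios were 5.47 in SK-LMS-1 against 3.18 in SK-UT-1. Exons of the 2 genes overlap on opposite strands over 185 bases, and the counting used strand.

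PARP14, a macrodomain protein known as a coactivator of STAT6, had 691 counts, or 105 CPM (97.7 to 114), in SK-LMS-1 against 510 counts, or 63.4 CPM (58.0 to 69.1), in SK-UT-1. Its level was 1.66-fold (1.48 to 1.87) higher in SK-LMS-1, and the intervals did not overlap. Set against PARP9, its ratio of ratios was 1.16 (0.903 to 1.48), an interval that holds 1 and reaches 1.48 times. Against PARP14, DTX3L was 1.49 times further apart between the lines (1.26 to 1.76). PARP15, which lies between DTX3L and PARP14, had 3 counts for SK-LMS-1 against 0 for SK-UT-1, too few for a ratio. Within 500 kb of DTX3L 10 other genes were measured, PARP9 and PARP14 among them, and 2 passed 2-fold towards SK-LMS-1 and 0 towards SK-UT-1. These were DIRC2, with 33.0 CPM for SK-LMS-1 against 15.2 CPM for SK-UT-1, and LOC100129550, with 12.5 CPM for SK-LMS-1 against 5.47 CPM for SK-UT-1. Outside the family, the measured gene closest to DTX3L was KPNA1, an importin alpha gene 49.4 kb away, with 212 CPM for SK-LMS-1 against 117 CPM for SK-UT-1. The one closest to PARP14 was HSPBAP1, 9.16 kb away, with 10.1 CPM for SK-LMS-1 against 8.08 CPM for SK-UT-1. Its ratio was 1.25 (0.872 to 1.78), an interval that holds 1. KPNA1 and HSPBAP1 were named after their values were seen.

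**Figure D2:**
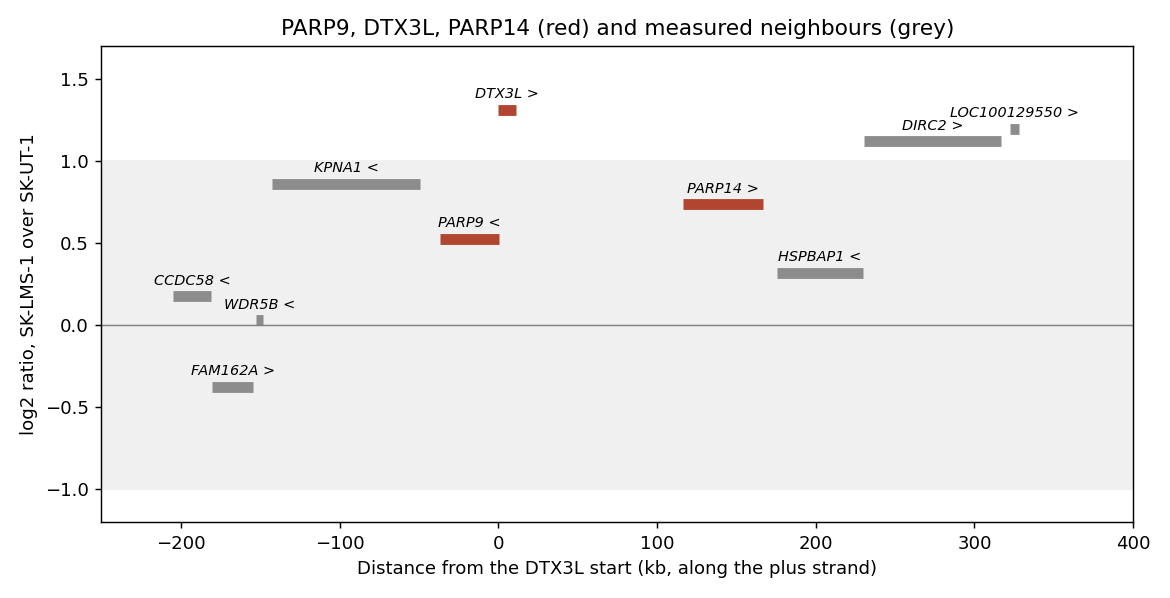
Log2 ratio (SK-LMS-1 over SK-UT-1) of PARP9, DTX3L and PARP14 (red) and of measured neighbours (grey), each drawn over the distance its exons span from the DTX3L start in kb, with > for the plus and < for the minus strand. DTX3L, at 1.31, has the highest ratio drawn, while PARP9, at 0.53, lies directly beside it and inside the band of 2-fold.

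PARP12 and PARP10, the others introduced above as induced by interferon, went in opposite directions. PARP12, a zinc finger protein of the Golgi apparatus and of stress granules, had 160 counts, or 24.4 CPM (20.8 to 28.5), in SK-LMS-1 against 118 counts, or 14.7 CPM (12.1 to 17.6), in SK-UT-1. Its level was 1.67-fold (1.30 to 2.13) higher in SK-LMS-1. This gene occupies chr7:140023744-140063721 on the minus strand. PARP10, first found as a partner of the MYC protein, had 26 counts, or 3.97 CPM (2.59 to 5.81), in SK-LMS-1 against 122 counts, or 15.2 CPM (12.6 to 18.1), in SK-UT-1. It was 3.82-fold (2.49 to 6.08) higher in SK-UT-1, and 7.52% of measured genes were at least as far apart in that direction. MYC itself, also named after its values were seen, differed the other way, with 109 CPM for SK-LMS-1 against 87.7 CPM for SK-UT-1, a ratio of 1.24 (1.12 to 1.38). PARP10 occupies chr8:143977152-143986467 on the minus strand, where 27 genes within 500 kb were measured. None of these, 0 of 27, passed 2-fold towards SK-LMS-1 (21.9% of all measured genes), 9 passed it towards SK-UT-1 (18.3%), and their median log2 ratio was -0.37. The closest, PLEC, which encodes plectin, lies 0.407 kb away and went the other way, with 717 CPM for SK-LMS-1 against 384 CPM for SK-UT-1, a ratio of 1.87 (1.78 to 1.95). Of the 9, EPPK1, which encodes epiplakin, was 20.1-fold (6.61 to 99.6) higher in SK-UT-1, OPLAH, the 5-oxoprolinase gene, 17.1-fold (6.43 to 64.2), and EXOSC4, a subunit of the RNA exosome, 3.14-fold (2.07 to 4.91).

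Of the 5 interferon-inducible members, 4 (PARP9, DTX3L, PARP12 and PARP14) had log2 ratios above 0, as did 15 of the 41 measured genes in the list of interferon-stimulated genes and 50.3% of all measured genes. Within that list 7 passed 2-fold towards SK-LMS-1 (21.9% of all measured genes) and 17 towards SK-UT-1 (18.3%), and the median log2 ratio was -0.66. OAS1, which responds to viral RNA, was 18.2-fold (5.96 to 90.4) higher in SK-UT-1 and IFITM1 13.3-fold (4.29 to 66.7), each against 3 counts in SK-LMS-1. IFIT1, which binds foreign RNA, was 10.7-fold (8.58 to 13.5) higher in SK-UT-1. SAMD9L, a growth and antiviral regulator, was 17.8-fold (13.2 to 24.5) higher in SK-LMS-1, IFI44 13.4-fold (6.76 to 30.1) and IFI44L 4.58-fold (2.31 to 9.88). PARP9, DTX3L, PARP12 and PARP14 lay between these values.

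STAT2 and IRF9, which act at the interferon-response element, both lay within 2-fold. STAT2 had 44.3 CPM for SK-LMS-1 against 37.6 CPM for SK-UT-1, with a ratio of 1.18 (0.997 to 1.39). IRF9 had 8.24 CPM for SK-LMS-1 against 13.0 CPM for SK-UT-1, which is 1.58-fold (1.13 to 2.24) higher in SK-UT-1. Among 15 measured genes for interferon receptors and JAK-STAT signalling, 1 passed 2-fold towards SK-LMS-1 and 0 towards SK-UT-1. It was SOCS3, an inhibitor of JAK signalling, which was 7.70-fold (5.07 to 12.1) higher in SK-LMS-1. With library totals as the scaling, 2 genes of that list passed the threshold towards SK-UT-1. On the STAT6 side that PARP14 is known to serve, IL13RA1, a receptor chain for IL-4 and IL-13, was 3.87-fold (3.50 to 4.29) higher in SK-LMS-1, while JAK3 was 6.35-fold (3.28 to 13.8) higher in SK-UT-1. The other 2 measured genes of that list lay within 2-fold.

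**Figure D3:**
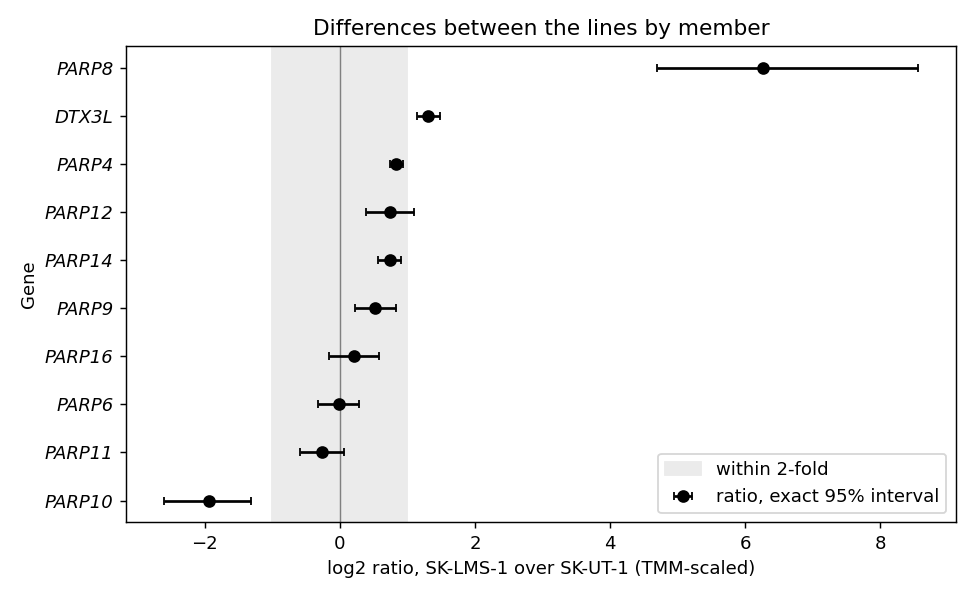
Log2 ratio of TMM-scaled counts (SK-LMS-1 over SK-UT-1) for each member with its exact 95% interval, over a grey band for 2-fold. PARP8 at 6.27 and DTX3L at 1.31 lie beyond the band on the SK-LMS-1 side and PARP10 at -1.93 on the SK-UT-1 side.

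PARP6 and PARP8 are close relatives, and the lines differed far more in PARP8 than in PARP6. PARP8 had 188 counts, or 28.7 CPM (24.7 to 33.1), in SK-LMS-1 against 3 counts, or 0.373 CPM (0.0769 to 1.09), in SK-UT-1. It was 77.0-fold (25.9 to 377) higher in SK-LMS-1, and 1.46% of measured genes were at least as far apart in that direction. PARP6 had 165 counts, or 25.2 CPM (21.5 to 29.3), in SK-LMS-1 against 205 counts, or 25.5 CPM (22.1 to 29.2), in SK-UT-1. Its ratio of 0.989 (0.800 to 1.22) is near 1, and the interval, read the other way round, reaches 1.25-fold higher in SK-UT-1. PARP6 occupies chr15:72241181-72271287 on the minus strand. The ratio of PARP8 to PARP6 differed 77.9-fold between the libraries (25.3 to 386). PARP8 is also expressed in leukocytes, and of the 8 leukocyte markers checked 4 had 0 counts in both lines, among them PTPRC, which encodes CD45. The highest of those markers, CD68, is a lysosomal protein that is not confined to leukocytes, and had 91.9 CPM for SK-LMS-1 against 14.5 CPM for SK-UT-1. The summed level of that list came to 92.5 CPM for SK-LMS-1 against 16 CPM for SK-UT-1.

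The surroundings of PARP8 on chromosome 5 (plus strand, chr5:50665899-50846522 in hg38) held 1 other measured gene within 500 kb. This was EMB, which encodes embigin, a partner of monocarboxylate transporters, 224 kb away. EMB had 473 counts for SK-LMS-1 against 0 for SK-UT-1. With SK-UT-1 set to a floor of 3 counts, EMB was 194-fold higher in SK-LMS-1. Its interval, from the 0 counts themselves, began at 157-fold and had no upper end. RefSeq gives PARP8 3 promoter windows with a GC content of 47.7%, 77.7% and 65.3%, holding 2, 43 and 17 CpG dinucleotides.

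PARP4, the ADP-ribosyltransferase of the vault particle, was the most abundant member in both libraries. It had 2008 counts, or 306 CPM (293 to 320), in SK-LMS-1 against 1380 counts, or 171 CPM (163 to 181), in SK-UT-1, 1.79-fold (1.67 to 1.92) higher in SK-LMS-1. This gene occupies chr13:24420931-24512810 on the minus strand. GENCODE 29 lists 3 pseudogenes named after PARP4, and reads that align to several places were not counted by the recorded settings, so its level can be underestimated. MVP, the major protein of the vault, was 3.50-fold (2.87 to 4.28) higher in SK-LMS-1, at 59.5 CPM against 17 CPM in SK-UT-1. TEP1, the vault's RNA-binding protein, was 1.20-fold (1.03 to 1.40) higher in SK-LMS-1 and was named after its values were seen. All 3 vault proteins thus had ratios above 1, of different size, as did 50.3% of all measured genes. Library totals multiply each ratio by 0.900, which takes the lower end of the TEP1 interval below 1.

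PARP11 and PARP16 did not differ by more than counting error with TMM scaling. PARP11 had 132 counts, or 20.1 CPM (16.9 to 23.9), in SK-LMS-1 against 194 counts, or 24.1 CPM (20.8 to 27.7), in SK-UT-1, a ratio of 0.836 (0.665 to 1.05). Scaled by library totals, its log2 interval of -0.74 to -0.08 excluded 0. PARP16 had 120 counts, or 18.3 CPM (15.2 to 21.9), in SK-LMS-1 against 127 counts, or 15.8 CPM (13.2 to 18.8), in SK-UT-1, a ratio of 1.16 (0.897 to 1.5). PARP11 occupies chr12:3808861-3873448 and PARP16 chr15:65258099-65286680, both on the minus strand. PARP16 is known to modify the stress sensors of the endoplasmic reticulum. Of these, ERN1 was 3.39-fold (2.53 to 4.6) higher in SK-LMS-1, at 26.6 CPM against 7.83 CPM in SK-UT-1. EIF2AK3 had 47.2 CPM for SK-LMS-1 against 41.7 CPM for SK-UT-1, a ratio of 1.13 (0.965 to 1.32), and was named after its values were seen. MVP and ERN1 were the 2 of 10 measured genes in the list of reported partners and substrates that passed 2-fold towards SK-LMS-1, and 0 passed it towards SK-UT-1.

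Around PARP16 on chromosome 15, 15 other genes within 500 kb were measured. Of these, 1 passed 2-fold towards SK-LMS-1 (21.9% of all measured genes) and 7 towards SK-UT-1 (18.3%). Their median log2 ratio was -0.91, against 0.21 for PARP16 itself. RASL12 and RBPMS2, an RNA-binding protein of smooth muscle, had 0 counts in SK-LMS-1. Measured against the floor, RASL12 was 20.4-fold higher in SK-UT-1 and RBPMS2 21.4-fold. Their intervals began at 16.15-fold for RASL12 and 17.03-fold for RBPMS2, with no upper end. Around PARP11, 3 genes were measured, and 2 of them passed 2-fold towards SK-UT-1. CRACR2A, a regulator of calcium entry, had 0 counts in SK-LMS-1. Against the floor it was 17.6-fold higher in SK-UT-1, with an interval that began at 13.9-fold. TIGAR, a fructose bisphosphatase regulated by p53, was 2.02-fold higher in SK-UT-1. Around PARP6, 10 genes were measured, 4 passed towards SK-LMS-1 and 2 towards SK-UT-1, led by THSD4, a protein of the extracellular matrix, at 17.5-fold higher in SK-LMS-1. Around PARP4, 1 of 2 measured genes, SPATA13, passed towards SK-UT-1, at 2.09-fold (1.64 to 2.68). Around PARP12 on chromosome 7, 4 of 7 measured genes passed 2-fold towards SK-LMS-1 (21.9% of all measured genes) and 0 towards SK-UT-1 (18.3%). HIPK2, a nuclear kinase, led them with 863 CPM for SK-LMS-1 against 37.9 CPM for SK-UT-1, which is 22.8-fold (20.3 to 25.6) higher in SK-LMS-1.

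Per length, the members' TPM spanned 49.7-fold within SK-LMS-1 and 618-fold within SK-UT-1. From high to low, the SK-LMS-1 library had PARP4 (156 TPM), DTX3L (66.4), PARP14 (38.1), PARP6 (26.7), PARP16 (20.1), PARP12 (17.9), PARP11 (12.0), PARP8 (10.9), PARP9 (10.1) and PARP10 (3.14 TPM). Neighbours in that order differed beyond counting error except PARP16 and PARP12, PARP11 and PARP8, and PARP8 and PARP9. In SK-UT-1 the order was PARP4 (97.4 TPM), PARP6 (30.1), DTX3L (29.9), PARP14 (25.5), PARP16 (19.3), PARP11 (16), PARP10 (13.4), PARP12 (12.0), PARP9 (7.84) and PARP8 (0.158 TPM). There the pairs not separated were PARP6 and DTX3L, PARP16 and PARP11, PARP11 and PARP10, and PARP10 and PARP12. PARP4 held 43.2% of the members' summed TPM in SK-LMS-1 against 38.7% in SK-UT-1, and DTX3L held 18.4% in SK-LMS-1 against 11.9% in SK-UT-1. PARP10 and PARP8 were the lowest members, PARP10 in SK-LMS-1 and PARP8 in SK-UT-1.

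**Figure D4:**
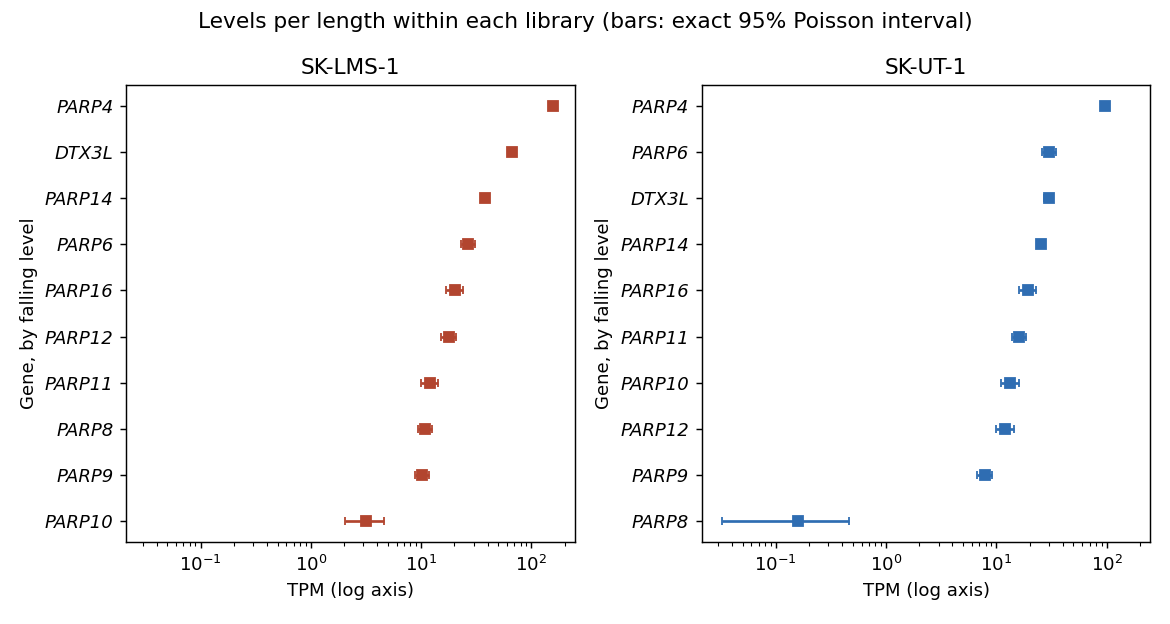
TPM on a log axis for the 10 genes, ordered by level within SK-LMS-1 (left) and SK-UT-1 (right), with exact 95% Poisson intervals. PARP4 leads both panels, at 156 TPM in SK-LMS-1 against 97.4 TPM in SK-UT-1, and the bottom place goes to PARP10 (3.14 TPM) in SK-LMS-1 and PARP8 (0.158 TPM) in SK-UT-1.

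Within the whole PARP family of 17 genes, the 9 mono-ADP-ribosyltransferases above made up 35.5% of summed TPM in SK-LMS-1 against 30.7% in SK-UT-1. PARP1 and PARP2, the strand break sensors that build chains, made up 17.6% in SK-LMS-1 against 42.5% in SK-UT-1, and the tankyrases TNKS and TNKS2 made up 14.3% in SK-LMS-1 against 10.6% in SK-UT-1. PARP1 had 69.1 TPM in SK-LMS-1 against 213 TPM in SK-UT-1, and PARP2 77.3 TPM in SK-LMS-1 against 93.9 TPM in SK-UT-1. Those 9 are not a full list of the mono-ADP-ribosyltransferases. TIPARP, for example, a mono-ADP-ribosyltransferase induced by the aryl hydrocarbon receptor, is not among them. It had 169 TPM in SK-LMS-1, above PARP4, and 4.35 TPM in SK-UT-1. The 9 summed to 295 TPM in SK-LMS-1 against 222 TPM in SK-UT-1, so a share that included TIPARP would differ more between the lines. ZC3HAV1, an antiviral RNA-binding member without catalytic activity, had 76.3 TPM in SK-LMS-1 against 88.4 TPM in SK-UT-1, and PARP3 25.1 TPM in SK-LMS-1 against 23.8 TPM in SK-UT-1. TNKS had 44.2 TPM in SK-LMS-1 against 36.2 TPM in SK-UT-1, and TNKS2 74.2 TPM in SK-LMS-1 against 40.4 TPM in SK-UT-1. Of the other 8 family members 7 were measured, of which TIPARP and TNKS2 passed 2-fold towards SK-LMS-1 and PARP1 towards SK-UT-1, at 2.77-fold (2.53 to 3.02). TNKS2, at 2.05-fold, was close to the threshold, and only 1 gene passed it towards SK-LMS-1 with library totals or the upper quartile.

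Enzymes that remove ADP-ribose were higher in SK-LMS-1 where they differed by 2-fold, and went both ways below that. All 11 were measured, 4 passed 2-fold towards SK-LMS-1 and 0 towards SK-UT-1, and the median log2 ratio was 0.44. ENPP1, a membrane phosphodiesterase that can cleave ADP-ribose attachments, was 60.9-fold (39.2 to 100.2) higher in SK-LMS-1. MACROD2, a hydrolase of single ADP-ribose units, had 97 counts for SK-LMS-1 against 0 for SK-UT-1. With the floor of 3 counts it was 39.7-fold higher in SK-LMS-1, and its interval began at 31.7-fold. OARD1, which removes ADP-ribose from glutamate, was 2.31-fold (1.67 to 3.23) higher in SK-LMS-1.

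Genes for the supply of NAD+, the donor for all of these enzymes, were split between the lines. Of the 10 measured, 5 passed 2-fold towards SK-LMS-1 (21.9% of all measured genes) and 3 towards SK-UT-1 (18.3%), and the median log2 ratio was 0.81. Of these, NNMT, which methylates and so removes nicotinamide, was 208-fold (57.0 to 1721) higher in SK-LMS-1, NMRK1, the nicotinamide riboside kinase, 33.8-fold (8.92 to 286), each against 2 counts in SK-UT-1, and NMNAT1, the nuclear NAD+ synthase, 3.45-fold (2.58 to 4.67). QPRT, of the route from tryptophan, was 129-fold (22.8 to 5112) higher in SK-UT-1 against 1 count in SK-LMS-1, NAPRT, of the route from nicotinic acid, 2.70-fold (1.59 to 4.78), and SLC25A51, the mitochondrial NAD+ carrier, 2.10-fold (1.64 to 2.70). NAMPT, which makes NAD+ from nicotinamide and was named after its values were seen, was 2.48-fold (2.28 to 2.71) higher in SK-LMS-1. In the deltex family, to which DTX3L belongs, DTX2 was 2.12-fold (1.31 to 3.47) higher in SK-LMS-1, at 7.63 CPM against 3.60 CPM in SK-UT-1. It fell short of 2-fold with library totals, the upper quartile or thinning. DTX1 had 0 counts for SK-LMS-1 against 15 for SK-UT-1, which is 4.07-fold higher in SK-UT-1 with the floor, with an interval that began at 2.92-fold. The most abundant of the 4 other deltex genes, DTX3, had 11 CPM for SK-LMS-1 against 20.4 CPM for SK-UT-1.

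**Figure D5:**
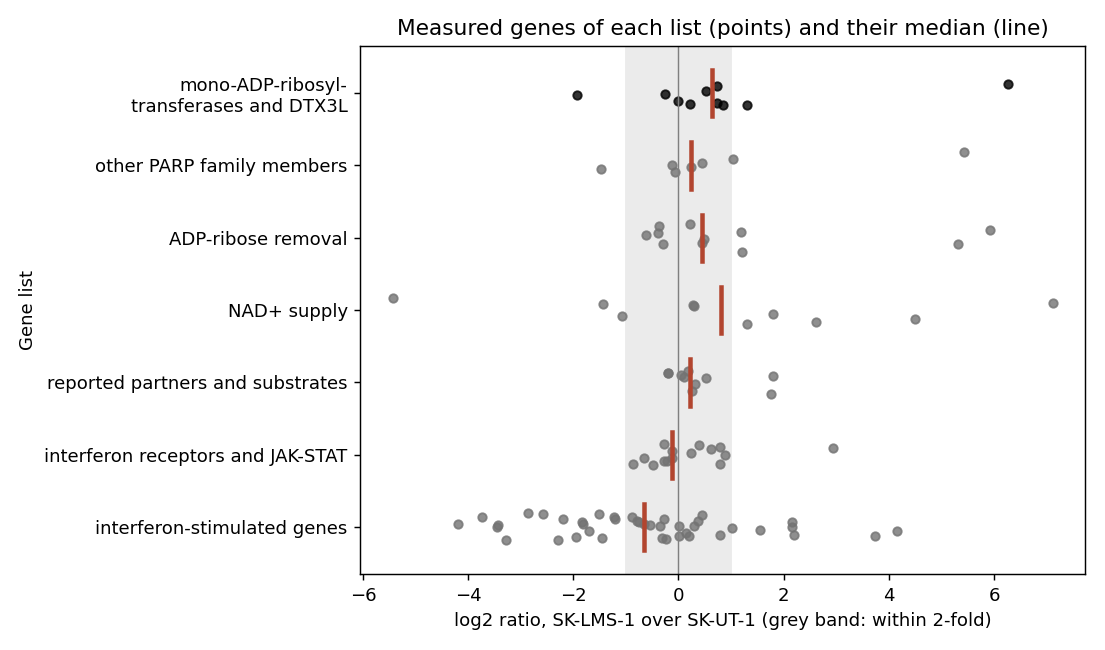
Log2 ratios (SK-LMS-1 over SK-UT-1) of the measured genes of each list as points with the list median as a red line, over a grey band for 2-fold. The members' median of 0.63 lies above 0, that of the interferon-stimulated genes at -0.66 lies below it, and PARP8 at 6.27 is the point farthest right among the members.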

How the data were processed

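Total RNA libraries were made with a stranded SMARTer kit, per the labels' protocols. The deposited table holds unnormalised gene counts. The authors ran featureCounts 2.0.1 with strand setting 1 and a UCSC annotation of hg38, per the file headers. There a fragment overlapping several genes counted for each, and no option for reads aligning to several places was recorded. Which aligner was run is not stated there. Another 2 columns of counts match neither sample and were not used.

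Counts were used as deposited. CPM came from TMM scaling with edgeR 4.0.16 (R 4.3.3), and TPM from the table's gene lengths. A count below 3 was raised to 3 in a ratio used for the size rule and medians. Where a library had 1 or 2 counts, the printed fold is the ratio itself. Intervals are exact at 95% (conditional binomial for ratios, Poisson for levels, conditional odds ratio for ratios of ratios; scipy 1.17.1). With 1 library per line no test was run.

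The members and lists were chosen with earlier results of these data known. The text names all members, all other PARP genes, up to 3 genes per direction from each list at 2-fold and 5 CPM, up to 3 neighbours per locus, STAT2, IRF9 and the highest marker of a cell type. KPNA1, HSPBAP1, PLEC, MYC, TEP1, EIF2AK3, NAMPT, DTX1 and DTX3 fall outside it and were named after their values were seen. The same holds for the markers MYH11, DES, ACTA2, MYLK, SMTN and PTPRC. A further gene under that rule is not reported here. Over 2 libraries a pattern is 1 ratio, so likeness is given as the percentage of genes as far apart. Promoter windows come from RefSeq. Alternatives were other scalings (library totals, upper quartile, DESeq2 1.42.0 size factors), size rules, filters, floors, lengths and thinning.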

Additional observations from a re-analysis of the deposited data

How the results depend on the processing

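All 10 members kept the sign of their log2 ratio under library totals, DESeq2 size factors, the upper quartile and thinning of the deeper library. Library totals moved the median of all measured genes by -0.15 and the upper quartile by -0.13, and every member by the same amount. PARP4 was the member that left its TMM interval, at 0.69 with library totals and 0.70 with the upper quartile, against 0.84 with TMM. The 2 members past 2-fold towards SK-LMS-1 and the 1 towards SK-UT-1 were, as counts, the same under these scalings, thinning, a floor of 1 count, 5 CPM, no filter and the rule that the whole interval lie beyond 2-fold. At 1.5-fold, 5 members passed towards SK-LMS-1, 3 with library totals and 5 with the upper quartile, DESeq2 size factors or thinning (combinations chosen after seeing the data), and at 4-fold 1 did so, with 0 towards SK-UT-1. With GENCODE 29 lengths, 2 members changed rank within each line, and with 200 bases taken off each length 0 did. Of 144 list counts under alternatives, 126 stayed within 1.5 times and 18 moved. No paired analysis was possible because each line has 1 library. Depth limits PARP8 in SK-UT-1 (3 counts) and PARP10 in SK-LMS-1 (26 counts) most. No left-out replicate could be tried, and biological spread within a line is unknown.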
